A study of Rattus norvegicus with 30 samples.

Results

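Expression of Wnt pathway genes was followed in mesenchymal stem cells of rat bone marrow (BMSCs) over the first 72 h in media that induce bone, fat or cartilage differentiation. The genes were chosen by name alone, as every listed gene whose symbol is that of a Wnt ligand, of the ligand export factors Wls and Porcn, of a Frizzled, Lrp4 to Lrp6, Ror or Ryk receptor, of an R-spondin or its receptors Lgr4 to Lgr6, of the ubiquitin ligases Rnf43 and Znrf3, of a secreted inhibitor (Sfrp, Frzb, Dkk, Wif1) or Kremen receptor, of an intracellular component (Dvl, Axin, Apc, Gsk3, Nkd, Daam, Ctnnb1, Tcf7, Lef1) or of a Wisp protein, leaving out Sfrp2. This gave 45 of the 9999 gene names listed for all samples, each of them a single row. Ctnnb1 (β-catenin), Lrp5, Lrp6, Apc, Axin1, Dvl1, Dvl2, Porcn, Ryk, Znrf3, Lgr4 and Wif1 were not among the listed names. Nothing is said here about their expression. The marrow was taken from the leg bones (femurs, tibia) of 3 Sprague Dawley rats, all female and 3 weeks old, with no genetic change named, and cells were used at passage 2. RNA was sequenced from undifferentiated cells (0 h) and after 3, 12 and 72 h in osteogenic, adipogenic or chondrogenic medium, with 3 samples in each of 10 groups and 30 samples in all. The 3 lineages share the same 3 samples at 0 h, so a chance deviation of those samples enters every comparison with 0 h. Each sample pooled 3 cultures, and no label ties a sample to a rat, so the p-values below measure the spread between these pools.

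Wnt ligands are lipid-modified proteins that leave the cell with the help of Wls and bind Frizzled receptors together with Lrp5, Lrp6, Ror or Ryk co-receptors. In the canonical branch the bound receptors recruit Dvl and stop the destruction complex of Axin, Apc and the Gsk3 kinases from marking β-catenin for decay, so that β-catenin reaches the TCF/LEF factors in the nucleus. The pathway is known in marrow stromal cells for favouring bone formation over fat formation, and many of its own regulators, among them Axin2, Nkd1, Rnf43, Lgr5 and Lef1, are transcribed as feedback targets.

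The deposited values are read counts scaled to a common library size (CPM), and they compare 1 gene between samples, not different genes, because no length correction was applied. Libraries held 3899609 to 9046719 reads (median 6579543), of which the listed genes took 38.9 to 71.4%, and 3 reads, the limit that a count of 0 allows, correspond to 0.332 to 0.769 CPM. The chondrogenic libraries at 72 h were the shallowest, at 3899609 to 4523111 reads. Such limits cover counting error only, since no molecular identifiers are named and several reads can stem from 1 molecule. A ratio given as at least a value sets the group at 0 to 3 reads and takes the reads of the other group as exact. It is thus not a strict lower bound. Among stromal markers, 6 of 9 were listed, and their summed level was 16090 to 16890 CPM at 0 h and 4112 to 4779 CPM in adipogenic cells at 72 h, where Thy1 was at 387 to 462 CPM against 7736 to 8280 CPM at 0 h. Eng, Pdgfra and Pdgfrb reached at most 1.82 CPM in any sample. Osteoblast markers (7 of 9 listed) summed to 3.46 to 5.77 CPM in osteogenic cells at 72 h, with Sp7 at 0, Alpl at up to 0.312 and Spp1 at up to 0.298 CPM, whereas Ibsp was at 201 to 318 CPM in chondrogenic cells at 72 h. Adipocyte markers (7 of 9 listed) summed to 1163 to 3221 CPM in adipogenic cells at 72 h, nearly all of it Lpl. In these cells Cd36, Cidec and Lep were at 0, and Cebpa at 0.3547 to 0.4752 CPM against 0.4179 to 1.061 at 0 h. Plin1 was higher in them, at 1.419 to 3.485 CPM against 0 to 0.3033 at 0 h. In osteogenic cells at 72 h the sum was 1041 to 1146 CPM, with Plin1 at 0.3121 to 0.904 CPM. Pparg was at 1.808 to 2.496 CPM in osteogenic and at most 0.9504 CPM in adipogenic cells at 72 h. Chondrocyte markers (8 of 10 listed) summed to 1172 to 1516 CPM in chondrogenic cells at 72 h, of which Sox9 gave 1152 to 1489 and Comp 19.4 to 25.1 CPM, with Acan at 0 and Col2a1 at up to 0.769 CPM. The groups are therefore named here by their medium. Blood markers (2 of 11 listed) summed to at most 2.06 CPM and endothelial markers (3 of 7 listed) to 0.740 to 7.08 CPM in any sample. In 3 libraries more genes than elsewhere lay over 2 log2 units from the mean of the other replicates: adipogenic replicate 3 at 72 h (74 genes), adipogenic replicate 1 at 12 h (24) and osteogenic replicate 3 at 3 h (18), against at most 13 in the rest. Calls gained or lost without them are given beside the gene.

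Of the 45 Wnt genes, 20 reached 1 CPM in at least 3 samples and were tested together with the other genes, 4363 in all. The remaining 25 stayed at 8 reads or fewer in every sample. A gene was called when its log2 fold change on the CPM + 1 scale was at least 1 in size and its adjusted p (limma, Benjamini-Hochberg over the 4363 genes) was under 0.05. This scale understates the change of genes with low values. With all samples, limma called 13 of the 20 in some comparison with 0 h, and Fzd3, Wls and Wnt2b only between lineages or between 12 and 72 h. It called Fzd8, Gsk3a, Gsk3b and Rspo3 in none, and calls that edgeR or a fit without 1 sample added are given beside the gene. Lgr6, Fzd8 and Lef1 passed the low-value filter only through a group in which they are high and could hardly fail to differ. Ror2 passed it only through samples of chondrogenic cells at 72 h and osteogenic cells at 3 h. Rspo3 did so only through samples of chondrogenic cells at 72 h and adipogenic cells at 12 h. These are again samples in which the genes are high, so the counts below are descriptions of the list. In these bulk samples a smaller share of cells of 1 type and less RNA per cell cannot be told apart.

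After 3 h of osteogenic differentiation, 1 Wnt gene was called higher and 3 were called lower, against 11.7% of all tested genes higher and 6.67% lower (510 and 291 genes, which became 376 and 419 under median-ratio scaling). At 12 h 0 were higher and 4 lower, against 14.7% and 7.15% (640 and 312 genes, or 415 and 476 under that scaling). At 72 h 1 was higher and 2 were lower, against 7.2% and 5.29%. During adipogenic differentiation, 1 was higher and 3 lower at 3 h, against 12.4% and 6.42% (541 and 280 genes, or 396 and 392). At 12 h 0 were higher and 3 lower, against 8.14% and 5.55% (355 and 242 genes, or 243 and 340), and at 72 h 4 were higher and 2 lower, against 6.19% and 9.08% (270 and 396 genes, or 381 and 351). During chondrogenic differentiation, 3 were higher and 3 lower at 3 h, against 13.1% and 4.88% (572 and 213 genes, or 368 and 323). At 12 h 2 were higher and 3 lower, against 9.44% and 5.0% (412 and 218 genes, or 272 and 318), and at 72 h 4 were higher and 2 lower, against 11.6% and 6.37%. Frzb was called in 7 of the 9 comparisons with 0 h, Rnf43 in 6, Fzd9 in 5, and Lgr5 and Fzd4 in 4 each.

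**Figure D1:**
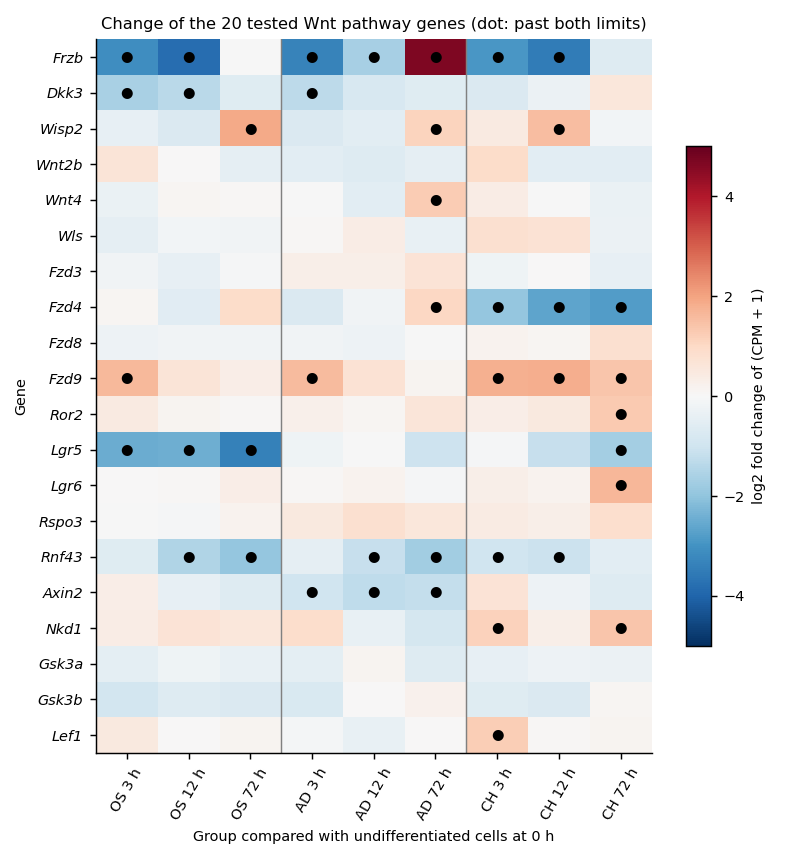
Log2 fold change of CPM + 1 against undifferentiated cells at 0 h (colour, red higher and blue lower) for the 20 tested Wnt genes (rows) in 9 groups of 3 samples (columns; OS osteogenic, AD adipogenic, CH chondrogenic). Dots mark calls; Frzb is low in all 3 lineages at 3 and 12 h and high in adipogenic cells at 72 h, and Fzd4 is called lower by limma in the 3 chondrogenic columns.

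At 3 h Fzd9 was called higher and Frzb lower in all 3 lineages, and at 12 h Rnf43 and Frzb were called lower in all 3. Their upstream sequences are shown because these genes were called in the same direction in more than 1 lineage at 1 time point, as were Dkk3, Lgr5 and Wisp2. Those of Axin2 and Nkd1 are shown because, of the Wnt genes called, they hold the core of the TCF/LEF binding motif, and they were chosen after the matches were seen. Each line gives, 5′ to 3′ on the gene's strand, the 250 bases before the RefSeq start of the gene in GRCr8, with CTTTGAT and CTTTGAA in capitals on the gene's strand or as their reverse complements, 2 motifs that cannot match at the same position. The windows are chr3:85772097-85772346 (minus strand) for Frzb, chr12:27063390-27063639 (plus) for Fzd9, chr10:72963116-72963365 (plus) for Rnf43, chr10:94398535-94398784 (plus) for Axin2 and chr19:34722847-34723096 (minus) for Nkd1.
Frzb: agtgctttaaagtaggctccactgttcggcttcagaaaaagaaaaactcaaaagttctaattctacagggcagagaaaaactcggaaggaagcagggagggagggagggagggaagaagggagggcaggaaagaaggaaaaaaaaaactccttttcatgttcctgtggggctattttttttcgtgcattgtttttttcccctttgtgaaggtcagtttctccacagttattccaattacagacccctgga
Fzd9: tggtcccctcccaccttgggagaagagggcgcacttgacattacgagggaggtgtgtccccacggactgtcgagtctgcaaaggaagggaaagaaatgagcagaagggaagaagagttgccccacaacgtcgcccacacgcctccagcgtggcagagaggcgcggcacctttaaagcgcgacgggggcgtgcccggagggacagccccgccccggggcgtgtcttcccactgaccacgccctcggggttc
Rnf43: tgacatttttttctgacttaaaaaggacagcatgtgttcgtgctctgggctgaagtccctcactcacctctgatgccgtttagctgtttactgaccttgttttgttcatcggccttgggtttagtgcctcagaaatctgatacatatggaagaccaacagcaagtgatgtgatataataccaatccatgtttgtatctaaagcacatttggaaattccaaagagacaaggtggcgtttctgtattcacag
Axin2: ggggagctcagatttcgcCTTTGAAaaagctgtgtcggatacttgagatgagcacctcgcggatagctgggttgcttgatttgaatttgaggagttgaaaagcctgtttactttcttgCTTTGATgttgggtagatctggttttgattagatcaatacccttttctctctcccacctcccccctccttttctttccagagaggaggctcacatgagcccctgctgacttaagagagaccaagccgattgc
Nkd1: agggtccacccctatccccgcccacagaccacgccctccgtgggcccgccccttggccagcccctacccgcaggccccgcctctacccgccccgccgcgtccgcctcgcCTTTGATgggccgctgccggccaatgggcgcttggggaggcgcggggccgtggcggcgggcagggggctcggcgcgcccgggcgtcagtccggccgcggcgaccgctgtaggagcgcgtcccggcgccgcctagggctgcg
Axin2 holds CTTTGAA from base 232 and CTTTGAT from base 132 before the start, and Nkd1 holds CTTTGAT from base 141. The windows of Frzb, Fzd9 and Rnf43 hold neither motif. Of the 45 genes, 31 were found by symbol, and 5 of these (16.1%) hold a motif, against 7.58% of all 33469 promoters of the table, where CTTTGAT occurs in 3.15% and CTTTGAA in 4.68%. The other 3 are Dkkl1, Gsk3a and Wnt8a. GC content is 43.6% for Frzb, 64.8% for Fzd9, 41.6% for Rnf43, 47.6% for Axin2 and 80.0% for Nkd1, against a median of 51.2% over all promoters. A motif match is a description of the letters and not a binding site.

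Few of the listed Wnt ligands could be tested. Other ligands, Wnt5a among them, were not analysed here. Of 13 listed ligands, 2 were tested, Wnt2b and Wnt4, and the other 11 never passed 8 reads in a sample. Wnt7a, Wnt7b and Wnt10b reached 4 or more reads in some sample, and Wnt1, Wnt2, Wnt3a, Wnt6, Wnt8a, Wnt10a, Wnt11 and Wnt16 did not. Wnt4, a ligand known mainly for signalling apart from β-catenin, was at 0.43, 0.279 and 0.607 CPM at 0 h. Wnt4 in adipogenic medium was at 0.442, 0.472 and 0.297 CPM at 3 h, then 0, 0 and 0 at 12 h, with 3.38, 1.06 and 3.64 at 72 h. The 3 adipogenic samples at 72 h lay above every sample at 0 h, and the difference was called (log2 fold change 1.28 ± 0.29, adjusted p = 0.000682; 1.07 without adipogenic replicate 3). The rise from 12 to 72 h was also called (adjusted p = 6.2e-06), from 0 to 48 reads or at least 16.1-fold. At 12 h, with 0 reads in the 3 adipogenic samples, edgeR called Wnt4 lower than at 0 h (9 reads, adjusted p = 0.0287) and than in osteogenic (12 reads, adjusted p = 0.0227) and chondrogenic cells (10 reads, adjusted p = 0.028), where limma gave adjusted p of 0.174, 0.0906 and 0.211. In osteogenic medium Wnt4 was at 0.313, 0 and 0.138 CPM at 3 h, then 0.301, 1.2 and 0.305 at 12 h, with 0.298, 0.624 and 0.603 at 72 h, and in chondrogenic medium at 1.05, 0.587 and 0.983 CPM at 3 h, then 0.144, 0 and 1.43 at 12 h, with 0.513, 0 and 0 at 72 h. None of these 6 groups was called against 0 h, and all overlapped it. At 72 h Wnt4 was lower in osteogenic (log2 fold change -1.21 ± 0.29, adjusted p = 0.00114) and in chondrogenic cells (log2 fold change -1.60 ± 0.29, adjusted p = 2.8e-05) than in adipogenic cells.

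Wnt2b, a ligand of the canonical branch, was at 0.716, 0.697 and 0.303 CPM at 0 h. At 3 h it was at 0.783, 1.74 and 2.08 CPM in osteogenic, 2.4, 1.32 and 2.34 CPM in chondrogenic and 0, 0.315 and 0 CPM in adipogenic cells. Adipogenic samples at 3 h lay below all samples of the other media, and the difference was called against osteogenic (log2 fold change 1.17 ± 0.26, adjusted p = 0.00151) and chondrogenic cells (log2 fold change 1.44 ± 0.26, adjusted p = 9.42e-05). With 2 reads over the 3 adipogenic samples, the chondrogenic level was 22.5 times (95% counting interval 5.87 to 192) the adipogenic one. Against 0 h Wnt2b was called by edgeR in adipogenic cells at 12 h, where it had 0 reads against 12 (adjusted p = 0.0226), and by limma in chondrogenic cells at 3 h without their replicate 2 (1.11, adjusted p = 0.00268) or replicate 1 at 0 h (adjusted p = 0.00792). Between osteogenic and adipogenic cells at 12 h it was called by edgeR (adjusted p = 0.024) and without osteogenic replicate 2 (1.01). At 72 h Wnt2b gave 3, 3 and 1 reads in all over the osteogenic, adipogenic and chondrogenic samples. Wls, which carries Wnt proteins to the cell surface, was well covered, at 23.6, 31.3 and 26.8 CPM at 0 h. In chondrogenic medium it was at 45.2, 45.2 and 55.6 CPM at 3 h, then 48.1, 30.4 and 65.1 at 12 h, with 20.5, 21.9 and 23.4 at 72 h. The fall from 12 to 72 h was called (log2 fold change -1.03 ± 0.34, adjusted p = 0.0165), but the call was lost under median-ratio scaling (-0.83, adjusted p = 0.0754), in edgeR (-0.94) and without chondrogenic replicate 1 at 72 h or replicate 1 or 3 at 12 h. Without chondrogenic replicate 2 at 12 h, Wls was called higher at 12 h than at 0 h (1.02, adjusted p = 0.0331) and lower in osteogenic than in chondrogenic cells (-1.16, adjusted p = 0.0142), the latter also by edgeR (-1.11, adjusted p = 0.00815). At 3 h osteogenic cells were at 31.3, 34.9 and 6.22 CPM and were called lower than chondrogenic cells (log2 fold change -1.28 ± 0.34, adjusted p = 0.00659). Without osteogenic replicate 3, the sample at 6.22 CPM, that difference was -0.54 (adjusted p = 0.0786), and edgeR gave -0.89 (adjusted p = 0.0596) with it.

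**Figure D2:**
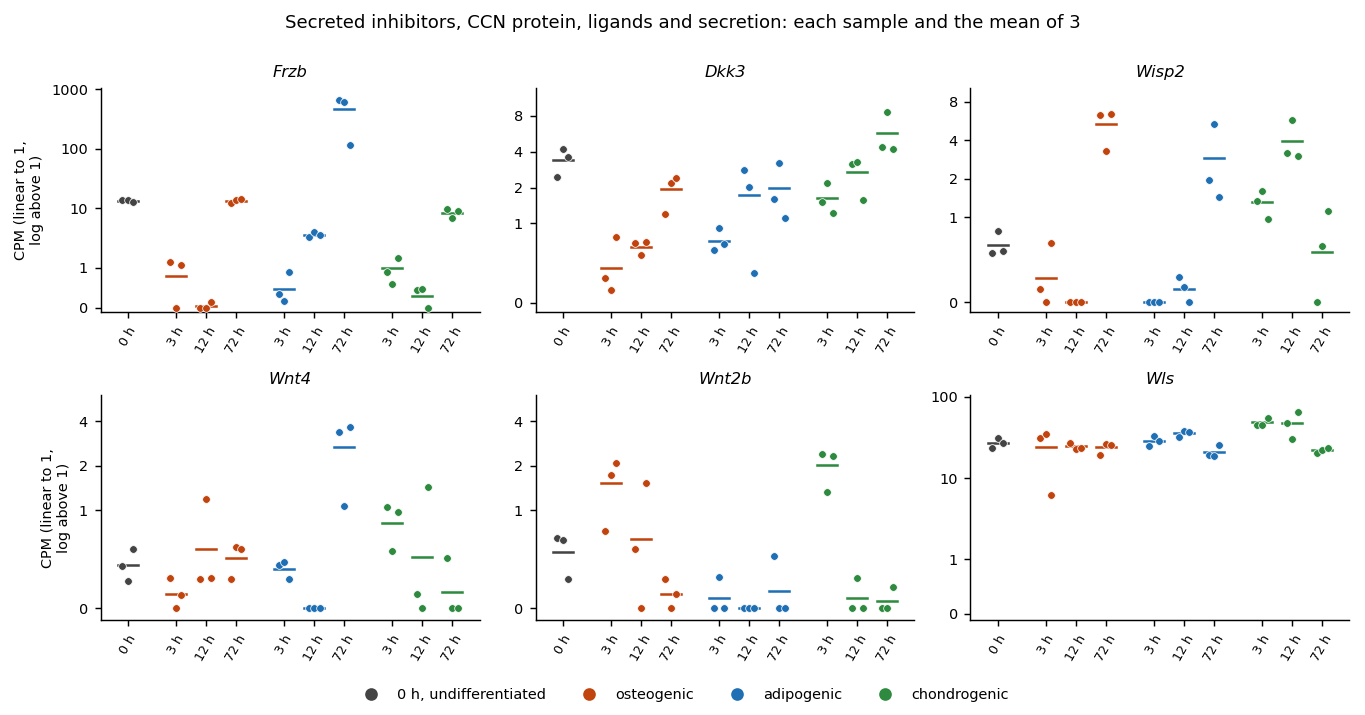
CPM of secreted inhibitors, Wisp2, ligands and Wls in each of the 30 samples (points, grouped by time within lineage) with the mean of 3 samples (bars); the vertical axis is linear up to 1 CPM and logarithmic above. Frzb spans 0 to 673 CPM, and adipogenic replicate 3 at 72 h lies apart from the other replicates at 118 CPM.

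Among the receptors, Fzd4, which binds Wnts and Norrin, differed most between lineages at 72 h of the 5 tested. It was at 316, 278 and 310 CPM at 0 h (301 ± 20.4, mean ± SD, n = 3). Fzd4 in chondrogenic medium was at 74.8, 84 and 75 CPM at 3 h, then 41.6, 48.9 and 51 at 12 h, with 34.1, 52.6 and 44.7 at 72 h. All 9 chondrogenic samples lay below every other sample of the series, and the fall was called at 3 h (log2 fold change -1.94 ± 0.16, adjusted p = 2.62e-11), 12 h (log2 fold change -2.65 ± 0.16, adjusted p = 3.82e-14) and 72 h (log2 fold change -2.77 ± 0.16, adjusted p = 6.47e-15), the last a level 6.88 times lower. Fzd4 in adipogenic medium was at 170, 178 and 196 CPM at 3 h, then 397, 215 and 221 at 12 h, with 551, 634 and 697 at 72 h. The 3 h samples lay below those at 0 h, a fall that limma did not call (log2 fold change -0.73 ± 0.16, adjusted p = 0.00039) and edgeR did (-1.02, adjusted p = 2.08e-06). At 72 h it was called higher than at 0 h (log2 fold change 1.05 ± 0.16, adjusted p = 3.7e-06), with no overlap, although the change was 0.97 without adipogenic replicate 3 and 0.99 without replicate 2 at 0 h, under the limit of 1. Fzd4 in osteogenic medium was at 315, 338 and 309 CPM at 3 h, then 205, 203 and 198 at 12 h, with 590, 532 and 601 at 72 h. The values at 72 h lay above all at 0 h, with a change of 0.93 ± 0.16 (adjusted p = 3.07e-05) that stayed under the limit of size. From 12 to 72 h Fzd4 rose in osteogenic (log2 fold change 1.50 ± 0.16, adjusted p = 3.33e-09) and adipogenic cells (log2 fold change 1.23 ± 0.16, adjusted p = 2.24e-07) and was not called in chondrogenic cells (-0.12 ± 0.16). Chondrogenic minus adipogenic cells gave -1.21 ± 0.16 at 3 h and -2.48 ± 0.16 at 12 h (adjusted p = 7.77e-07 and 2.28e-13), and osteogenic minus chondrogenic cells 2.03 ± 0.16 and 2.08 ± 0.16 (adjusted p = 5.28e-11 and 7.18e-12). At 72 h chondrogenic minus adipogenic cells gave -3.82 ± 0.16 and osteogenic minus chondrogenic cells 3.70 ± 0.16 (adjusted p = 2.05e-18 and 6.74e-18).

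Fzd9, another Frizzled receptor, was barely detected at 0 h, at 0, 0.418 and 0 CPM, or 3 reads in 3 libraries. At 3 h it was at 1.41, 1.74 and 5.26 CPM in osteogenic, 3.65, 0.944 and 3.12 in adipogenic and 2.7, 2.64 and 3.07 in chondrogenic cells. Every sample at 3 h lay above every sample at 0 h, and each lineage was called (log2 fold change 1.62 ± 0.35, adjusted p = 0.000357, 1.57 ± 0.35 with 0.000513 and 1.76 ± 0.35 with 0.000132). Without osteogenic replicate 3, the highest of its group, the osteogenic change was 1.19 (adjusted p = 0.00801). On summed reads the level in chondrogenic cells at 3 h was 19.5 times (95% counting interval 6.37 to 97.3) that at 0 h. At 12 h Fzd9 was at 0.452, 1.2 and 0.762 CPM in osteogenic and 0.585, 0.921 and 1.11 in adipogenic cells, against 3.75, 4.83 and 1.27 in chondrogenic cells. At 72 h the same media gave 0.448, 0.468 and 0.301, 0.356, 0.355 and 0 and 1.28, 1.55 and 3.33 CPM. Fzd9 stayed called against 0 h in chondrogenic cells at 12 h (log2 fold change 1.82 ± 0.35, adjusted p = 0.000101) and 72 h (log2 fold change 1.38 ± 0.35, adjusted p = 0.00216) and was not called in the other media. The chondrogenic level was called higher than the osteogenic one at 12 h (-1.16 ± 0.35, osteogenic minus chondrogenic, adjusted p = 0.00942) and 72 h (-1.06 ± 0.35, adjusted p = 0.0155), and than the adipogenic one at 12 h (1.10 ± 0.35, adjusted p = 0.0169) and 72 h (1.26 ± 0.35, adjusted p = 0.00357). These 4 calls were lost without chondrogenic replicate 2 at 12 h (-0.89 and 0.82) or chondrogenic replicate 3 at 72 h (-0.78 and 0.98). The 12 h difference from adipogenic cells also fell under the limits without chondrogenic replicate 1 (0.97), without adipogenic replicate 1 (0.98) and, at an adjusted p of 0.0747, with a pseudocount of 0.1.

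Ror2, a receptor tyrosine kinase for Wnt5a, was at 0.286, 0 and 0.152 CPM at 0 h and at 1.79, 3.1 and 0.889 CPM in chondrogenic cells at 72 h. The chondrogenic samples lay above those at 0 h, and the rise was called (log2 fold change 1.29 ± 0.24, adjusted p = 7.42e-05). Ror2 passed the filter only through chondrogenic replicates 1 and 2 at 72 h and osteogenic replicate 1 at 3 h, so its calls are descriptions. On summed reads, 25 against 3, the level was 13.4 times (95% counting interval 4.08 to 69.3) that at 0 h. At 72 h Ror2 was also lower in osteogenic than in chondrogenic cells (log2 fold change -1.22 ± 0.24, adjusted p = 0.000151), and its difference between chondrogenic and adipogenic cells was not called (0.69 ± 0.24). EdgeR also called Ror2 higher at 72 h than at 0 h in adipogenic cells (2.33, adjusted p = 0.042) and than at 12 h in chondrogenic cells (1.81, adjusted p = 0.0495), the latter called by limma without replicate 3 at 72 h (1.08). Fzd3, which acts in planar cell polarity, was at 42.2, 31.1 and 37.3 CPM at 0 h and had group means between 27.3 and 60 CPM. At 72 h it was at 22.1, 33.8 and 27.8 CPM in chondrogenic and 55.9, 57.3 and 66.8 CPM in adipogenic cells, which did not overlap and differed by -1.09 ± 0.16 (adjusted p = 1.52e-06; -0.94, under the limit of size, without chondrogenic replicate 1). EdgeR also called Fzd3 lower in osteogenic than in adipogenic cells at 72 h (-1.02, adjusted p = 4.5e-05). Fzd8 reached 1 CPM only in chondrogenic cells at 72 h, at 1.03, 1.1 and 1.11 CPM, 5 reads being the most in a library, with a change from 0 h of 0.81 ± 0.17. EdgeR called it lower in osteogenic than in chondrogenic cells at 3 h (0 against 8 reads, adjusted p = 0.0468) and 72 h (1 against 14 reads, adjusted p = 0.00535), and limma at 72 h without osteogenic replicate 2 (-1.06). Lrp4 had at most 1 read in any library.

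The genes that set how long Frizzled receptors stay at the surface moved in different ways. Lgr5, a receptor for R-spondins that protects Frizzled from removal, was at 30.1, 26.6 and 26.2 CPM at 0 h. Lgr5 in osteogenic medium was at 4.07, 2.84 and 6.09 CPM at 3 h, then 5.27, 3.29 and 4.26 at 12 h, with 1.49, 2.03 and 1.66 at 72 h. All 9 osteogenic samples lay below all samples at 0 h, and the fall was called at 3 h (log2 fold change -2.47 ± 0.55, adjusted p = 0.000538), 12 h (log2 fold change -2.46 ± 0.55, adjusted p = 0.000488) and 72 h (log2 fold change -3.40 ± 0.55, adjusted p = 1.5e-05), when the level was 16 times lower. Lgr5 in chondrogenic medium was at 30.3, 27.9 and 22.2 CPM at 3 h, then 13, 10.4 and 12 at 12 h, with 7.95, 7.74 and 8.01 at 72 h. The chondrogenic values at 12 and 72 h also lay below those at 0 h, and the fall was called at 72 h (log2 fold change -1.68 ± 0.55, adjusted p = 0.0165) and by edgeR also at 12 h (-1.48, adjusted p = 0.0118). In adipogenic medium Lgr5 was at 25.2, 25.5 and 20.7 CPM at 3 h, then 52.2, 20.8 and 18.5 at 12 h, with 32, 36.2 and 1.27 at 72 h. No adipogenic group was called against 0 h, and at 72 h replicate 3, at 1.27 CPM, stood apart from the other replicates. Osteogenic cells were lower than adipogenic cells at 3 h (log2 fold change -2.26 ± 0.55, adjusted p = 0.00395), 12 h (log2 fold change -2.44 ± 0.55, adjusted p = 0.00086) and 72 h (log2 fold change -2.37 ± 0.55, adjusted p = 0.000963). They were also lower than chondrogenic cells at 3 h (log2 fold change -2.42 ± 0.55, adjusted p = 0.002) and 72 h (log2 fold change -1.71 ± 0.55, adjusted p = 0.0137). Without adipogenic replicate 1 the difference from adipogenic cells at 12 h was -1.98 (adjusted p = 0.00974). Without adipogenic replicate 3 the difference at 72 h was -3.69, and chondrogenic cells were then also called lower than adipogenic cells at 72 h (-1.98, adjusted p = 1.01e-06, against -0.66 ± 0.55 with all samples). Without adipogenic replicate 1 or 2, in contrast, Lgr5 was called lower at 72 h than at 0 h in adipogenic cells, at -1.64 and -1.72, and than at 12 h, at -1.62 and -1.71. EdgeR called Lgr5 lower in chondrogenic than in adipogenic cells at 12 h (-1.35, adjusted p = 0.024) and 72 h (-1.68, adjusted p = 0.00651), and lower in osteogenic than in chondrogenic cells at 12 h (-1.61, adjusted p = 0.0152).

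Rnf43, a ubiquitin ligase that removes Frizzled receptors and is itself a Wnt target, was at 3.58, 3.62 and 5.31 CPM at 0 h. Rnf43 in osteogenic medium was at 2.35, 1.58 and 3.32 CPM at 3 h, then 0.603, 0.448 and 1.52 at 12 h, with 0.597, 0.312 and 0.151 at 72 h. Rnf43 in adipogenic medium was at 2.43, 3.15 and 2.68 CPM at 3 h, then 2.34, 0.552 and 1.29 at 12 h, with 0.534, 0.532 and 0.475 at 72 h. Rnf43 in chondrogenic medium was at 0.899, 1.61 and 2.34 CPM at 3 h, then 0.578, 2.03 and 1.9 at 12 h, with 2.31, 3.32 and 2.22 at 72 h. The samples at 12 h lay below those at 0 h in all 3 lineages, as did those at 72 h. The fall was called at 12 and 72 h in osteogenic (-1.50 ± 0.30 and -1.93 ± 0.30, adjusted p = 9.34e-05 and 5.57e-06) and adipogenic cells (-1.16 ± 0.30 and -1.76 ± 0.30, adjusted p = 0.00238 and 1.76e-05). In chondrogenic cells it was called at 3 and 12 h (-1.004 and -1.09 ± 0.30, adjusted p = 0.00649 and 0.00391) and not at 72 h (-0.51 ± 0.30, adjusted p = 0.184). The chondrogenic calls at 3 and 12 h were lost without replicate 3 at 0 h (-0.85 and -0.94) or without chondrogenic replicate 1 (-0.79 and -0.79), and the adipogenic call at 12 h without its replicate 2 (-0.88). At 72 h chondrogenic cells were called higher than osteogenic (osteogenic minus chondrogenic -1.42 ± 0.30, adjusted p = 0.000239) and adipogenic cells (1.24 ± 0.30, adjusted p = 0.000804).

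Lgr6, a further R-spondin receptor, was at 0.143, 0 and 0 CPM at 0 h and reached 1 CPM only in chondrogenic cells at 72 h, at 3.59, 1.77 and 1.78 CPM. The change was called (log2 fold change 1.65 ± 0.21, adjusted p = 1.65e-07), and it is a description, since Lgr6 passed the filter only through this group. It rests on 30 reads against 1, a ratio of 48.2 times (95% counting interval 8.01 to 1966). In adipogenic cells at 72 h Lgr6 had 0 reads, so the chondrogenic level was at least 13.6-fold higher, taking 3 reads over the 3 adipogenic libraries as the limit. It was also called above osteogenic cells at 72 h (osteogenic minus chondrogenic -1.32 ± 0.21) and chondrogenic cells at 12 h (1.46 ± 0.21). In the osteogenic groups it ranged from 0 to 0.746 CPM and in the earlier chondrogenic groups from 0 to 0.312 CPM. Rspo3, an R-spondin ligand, was at 0.286, 0.139 and 0 CPM at 0 h and highest on average in chondrogenic cells at 72 h, at 0.256, 1.33 and 1.78 CPM, and in adipogenic cells at 12 h, at 0.878, 0.552 and 1.67 CPM. The chondrogenic change was 0.82 ± 0.26 (adjusted p = 0.0114), under the limit of size, and the groups overlapped. It was called by edgeR (2.79, adjusted p = 0.0303) and without chondrogenic replicate 1 (1.16). At 12 h Rspo3 was called lower in osteogenic than in adipogenic cells by edgeR (-3.23, adjusted p = 0.0161) and without adipogenic replicate 2 (-1.03, adjusted p = 0.00677). Rspo3 passed the filter only through adipogenic replicate 3 at 12 h and chondrogenic replicates 2 and 3 at 72 h, so its calls are descriptions. Rspo4 reached 4 reads in 1 osteogenic sample at 72 h and otherwise had 1 read at most.

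**Figure D3:**
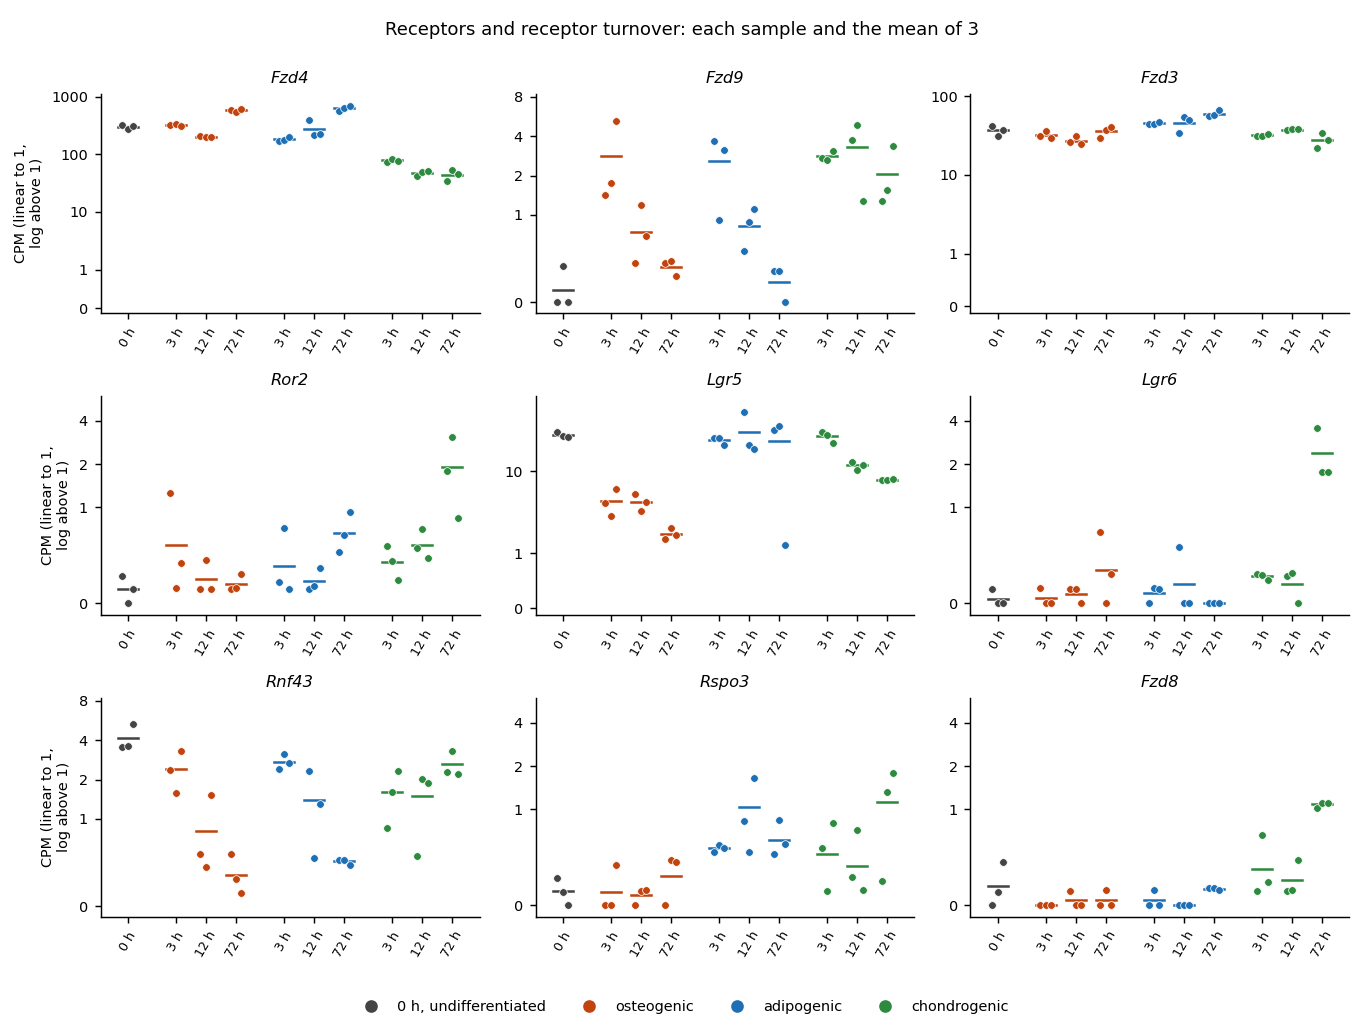
CPM of Wnt receptors and of genes of receptor turnover in each of the 30 samples (points) with the mean of 3 samples (bars); the vertical axis is linear up to 1 CPM and logarithmic above. All 9 chondrogenic samples lie below the rest for Fzd4, Lgr5 is lowest in osteogenic medium apart from 1 adipogenic sample at 1.27 CPM, and Lgr6 and Fzd8 pass 1 CPM only in the chondrogenic samples at 72 h.

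Of the 8 secreted inhibitors and inhibitor receptors, Frzb and Dkk3 were tested and both were called. Frzb, a secreted protein with a Frizzled-like domain that binds Wnts, was at 13.9, 13.9 and 12.9 CPM at 0 h (13.6 ± 0.591, mean ± SD, n = 3). Frzb in osteogenic medium was at 1.25, 0 and 1.11 CPM at 3 h, then 0, 0 and 0.152 at 12 h, with 12.5, 13.7 and 14.3 at 72 h. Frzb in adipogenic medium was at 0.332, 0.157 and 0.892 CPM at 3 h, then 3.36, 4.05 and 3.52 at 12 h, with 673, 623 and 118 at 72 h. Frzb in chondrogenic medium was at 0.899, 0.587 and 1.48 CPM at 3 h, then 0.433, 0.468 and 0 at 12 h, with 9.74, 6.85 and 8.89 at 72 h. All 18 samples at 3 and 12 h lay below all samples at 0 h. At 3 h the fall was -3.12 ± 0.40 in osteogenic, -3.35 ± 0.40 in adipogenic and -2.90 ± 0.40 in chondrogenic cells (adjusted p = 1.61e-07, 4.88e-08 and 5.88e-07). At 12 h it was -3.80 ± 0.40, -1.65 ± 0.40 and -3.51 ± 0.40 (adjusted p = 3.12e-09, 0.00152 and 2.77e-08), the adipogenic fall reaching an adjusted p of 0.0562 with a pseudocount of 0.1. At 12 h adipogenic cells were higher than both osteogenic (osteogenic minus adipogenic -2.14 ± 0.40, adjusted p = 9.02e-05) and chondrogenic cells (chondrogenic minus adipogenic -1.85 ± 0.40, adjusted p = 0.000516).

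By 72 h the lineages had parted in Frzb. Osteogenic samples overlapped those at 0 h (-0.01 ± 0.40), and chondrogenic samples lay below it without a call (-0.63 ± 0.40, adjusted p = 0.232). Adipogenic samples were 34.7 times above 0 h on average (log2 fold change 4.66 ± 0.40, adjusted p = 7.44e-11; 5.48 without replicate 3, whose 118 CPM is still above every sample of the other groups). From 12 to 72 h Frzb rose in each lineage, by 3.79 ± 0.40 in osteogenic, 6.31 ± 0.40 in adipogenic and 2.88 ± 0.40 in chondrogenic cells (adjusted p = 3.05e-09, 7.45e-14 and 1e-06). At 72 h the differences from adipogenic cells were -4.67 ± 0.40 for osteogenic and -5.29 ± 0.40 for chondrogenic cells (adjusted p = 1.82e-10 and 2.38e-12). The related Sfrp2, outside the list, was at 116 ± 3.42 CPM at 0 h and fell in all 6 groups at 3 and 12 h (log2 fold changes -3.25 to -4.93). At 72 h it was at 36.8 to 1702 CPM in adipogenic, 116 to 133 CPM in chondrogenic and 8.74 to 10.8 CPM in osteogenic cells.

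Dkk3, a secreted Dickkopf family protein, was at 2.44, 4.18 and 3.64 CPM at 0 h. Dkk3 in osteogenic medium was at 0.313, 0.158 and 0.83 CPM at 3 h, then 0.753, 0.598 and 0.762 at 12 h, with 1.19, 2.18 and 2.41 at 72 h. Dkk3 in adipogenic medium was at 0.663, 0.944 and 0.744 CPM at 3 h, then 2.78, 2.03 and 0.37 at 12 h, with 1.6, 3.19 and 1.11 at 72 h. Dkk3 in chondrogenic medium was at 1.5, 2.2 and 1.23 CPM at 3 h, then 3.18, 3.27 and 1.58 at 12 h, with 4.36, 8.62 and 4.22 at 72 h. At 3 h all samples of the 3 lineages lay below those at 0 h, and the fall was called in osteogenic (log2 fold change -1.63 ± 0.33, adjusted p = 0.000146) and adipogenic cells (log2 fold change -1.29 ± 0.33, adjusted p = 0.00184) but not in chondrogenic cells (-0.74 ± 0.33, adjusted p = 0.0723). EdgeR did call the chondrogenic fall (-1.42, adjusted p = 0.0184). The difference between osteogenic and chondrogenic cells at 3 h was not called by limma with all samples (-0.89 ± 0.33, adjusted p = 0.0561), but was called without osteogenic replicate 3 (-1.08, adjusted p = 0.036) and by edgeR (-1.72, adjusted p = 0.0482). At 12 h the fall was called in osteogenic cells (log2 fold change -1.35 ± 0.33, adjusted p = 0.00101), and in adipogenic cells only without replicate 1 (-1.10). Osteogenic cells at 12 h were also below chondrogenic cells (log2 fold change -1.07 ± 0.33, adjusted p = 0.01), a call lost without chondrogenic replicate 1 (-0.96) or 2 (-0.95). At 72 h chondrogenic samples were the highest, and they were called above osteogenic (osteogenic minus chondrogenic -1.17 ± 0.33, adjusted p = 0.00474) and adipogenic cells (1.18 ± 0.33, adjusted p = 0.00337). These differences shrank to -0.88 and 0.90 without chondrogenic replicate 2, the sample at 8.62 CPM, and the calls were lost. They were also lost without osteogenic replicate 1 (-0.97) and without adipogenic replicate 3 (0.97), respectively. From 12 to 72 h edgeR called Dkk3 higher in osteogenic (1.67, adjusted p = 0.0149) and chondrogenic cells (1.29, adjusted p = 0.0313), and limma in chondrogenic cells without replicate 3 at 72 h (adjusted p = 0.0376). Sfrp4, Dkk2 and Kremen1 reached 4 to 8 reads in some sample, Sfrp4 with 7 and 8 reads in adipogenic replicates 2 and 3 at 72 h. Dkk4, Dkkl1 and Kremen2 never passed 3 reads.

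Inside the cell, 4 of 7 components were tested. Axin2, a scaffold of the destruction complex and a feedback target, was at 2.87, 2.79 and 1.36 CPM at 0 h. Axin2 in adipogenic medium was at 0.553, 0.157 and 1.34 CPM at 3 h, then 0.292, 0.184 and 0.555 at 12 h, with 0, 0.355 and 1.11 at 72 h. Every adipogenic sample lay below every sample at 0 h, and the fall was called at 3 h (log2 fold change -1.01 ± 0.35, adjusted p = 0.0182), 12 h (log2 fold change -1.29 ± 0.35, adjusted p = 0.00393) and 72 h (log2 fold change -1.20 ± 0.35, adjusted p = 0.00694). The call at 3 h was lost in 4 of the 6 fits that left out 1 sample (-0.77 to -0.99, without adipogenic replicate 1 or 2 or replicate 1 or 2 at 0 h), and that at 72 h without adipogenic replicate 1 (-0.95). In osteogenic medium Axin2 was at 2.98, 2.53 and 4.01 CPM at 3 h, then 0.603, 2.69 and 1.52 at 12 h, with 1.19, 0.936 and 1.05 at 72 h, and in chondrogenic medium at 3, 5.58 and 4.67 CPM at 3 h, then 2.46, 1.09 and 1.74 at 12 h, with 2.31, 0.221 and 1.33 at 72 h. None of these 6 groups was called against 0 h. At 3 h Axin2 was higher in osteogenic (log2 fold change 1.35 ± 0.35, adjusted p = 0.00563) and chondrogenic (log2 fold change 1.72 ± 0.35, adjusted p = 0.000379) than in adipogenic cells, the first at an adjusted p of 0.0533 without adipogenic replicate 2. Osteogenic cells at 12 h were called above adipogenic cells by edgeR (2.04, adjusted p = 0.0451) and without osteogenic replicate 1 (1.19, adjusted p = 0.0153). At 12 h the chondrogenic difference from adipogenic cells (1.02 ± 0.35, adjusted p = 0.0244) was lost in 6 of 11 alternatives, among them the fits without chondrogenic replicate 1 or 3 and without adipogenic replicate 1 or 2 (0.84 to 1.01).

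Nkd1, which binds Dvl and dampens the pathway and is also a feedback target, was at 11.2, 9.47 and 8.64 CPM at 0 h. Nkd1 in chondrogenic medium was at 23.2, 20.7 and 24.3 CPM at 3 h, then 11.6, 12.2 and 13.2 at 12 h, with 34.1, 24.8 and 23.4 at 72 h. The values at 3 and 72 h lay above all at 0 h and were called (log2 fold change 1.15 ± 0.19, adjusted p = 1.41e-05, and 1.39 ± 0.19 with 7.81e-07). Under median-ratio scaling and in edgeR the rise at 3 h was 0.83 and 0.86, under the limit of size. In adipogenic medium Nkd1 was at 18.9, 17.5 and 19.5 CPM at 3 h, then 6.88, 9.02 and 6.29 at 12 h, with 4.99, 3.9 and 5.54 at 72 h. The 3 h values lay above those at 0 h and the 72 h values below them, with changes of 0.87 ± 0.19 and -0.89 ± 0.19 (adjusted p = 0.000482 and 0.000453) that stayed under the limit of size. Nkd1 in osteogenic medium was at 11.6, 10.9 and 16.6 CPM at 3 h, then 14.2, 21.1 and 14 at 12 h, with 16.1, 14.2 and 14.8 at 72 h. At 72 h the order was chondrogenic, osteogenic and adipogenic with no overlap between lineages. Adipogenic cells were called lower than osteogenic (1.47 ± 0.19, osteogenic minus adipogenic, adjusted p = 5.28e-07) and chondrogenic cells (2.28 ± 0.19, adjusted p = 2.88e-11). The difference between osteogenic and chondrogenic cells was -0.81 ± 0.19 (adjusted p = 0.0011), under the limit of size. The difference between osteogenic and adipogenic cells at 12 h (1.04 ± 0.19, adjusted p = 8.43e-05) fell to 0.86 without osteogenic replicate 2, 0.95 without adipogenic replicate 3 and 0.96 under median-ratio scaling. The rise from 12 to 72 h in chondrogenic cells (1.08 ± 0.19, adjusted p = 4.62e-05) was 0.92 without replicate 1 at 72 h.

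The kinases Gsk3a and Gsk3b, which phosphorylate β-catenin, were called by limma in no comparison with all samples. Gsk3a was at 9.17, 8.08 and 6.07 CPM at 0 h and between 3.02 and 11.1 CPM in the other samples, and was called at 72 h in adipogenic cells only without their replicate 1 (-1.01 from 0 h and -1.14 from 12 h). Gsk3b was at 4.73, 3.34 and 4.55 CPM at 0 h and between 0.415 and 7.77 CPM elsewhere. Its largest change from 0 h was in osteogenic cells at 3 h (-0.94 ± 0.39, 95% interval -1.74 to -0.13, adjusted p = 0.0574; called by edgeR at -1.33, adjusted p = 0.0491, and without osteogenic replicate 2 at -1.25). EdgeR also called Gsk3b lower in osteogenic than in adipogenic cells at 72 h (-1.40, adjusted p = 0.0431), as did limma without osteogenic replicate 1 (-1.19). Without adipogenic replicate 1 at 12 h, Gsk3b was called lower than in adipogenic cells in osteogenic (-1.12, adjusted p = 0.029) and chondrogenic cells (-1.17, adjusted p = 0.0263) at 12 h. Dvl3, Apc2 and Daam1 never passed 3 reads. In the nucleus, Lef1, a partner of β-catenin on DNA, was at 0.143, 0.139 and 0.607 CPM at 0 h and at 2.1, 1.61 and 2.34 CPM in chondrogenic cells at 3 h. These samples lay above all other samples of the series but 1, chondrogenic replicate 2 at 72 h, at 1.77 CPM. The rise was called (log2 fold change 1.23 ± 0.28, adjusted p = 0.000578), while edgeR gave an adjusted p of 0.0537 for it. Lef1 passed the filter only through these samples, so its call is a description. Chondrogenic cells at 3 h were also above adipogenic cells (log2 fold change 1.32 ± 0.28, adjusted p = 0.00066). By 12 h chondrogenic samples were at 0.578, 0.156 and 0.317 CPM, and the adipogenic samples at 12 h held 0 reads. Tcf7, the other listed factor of this family, reached 4 reads in 1 sample.

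**Figure D4:**
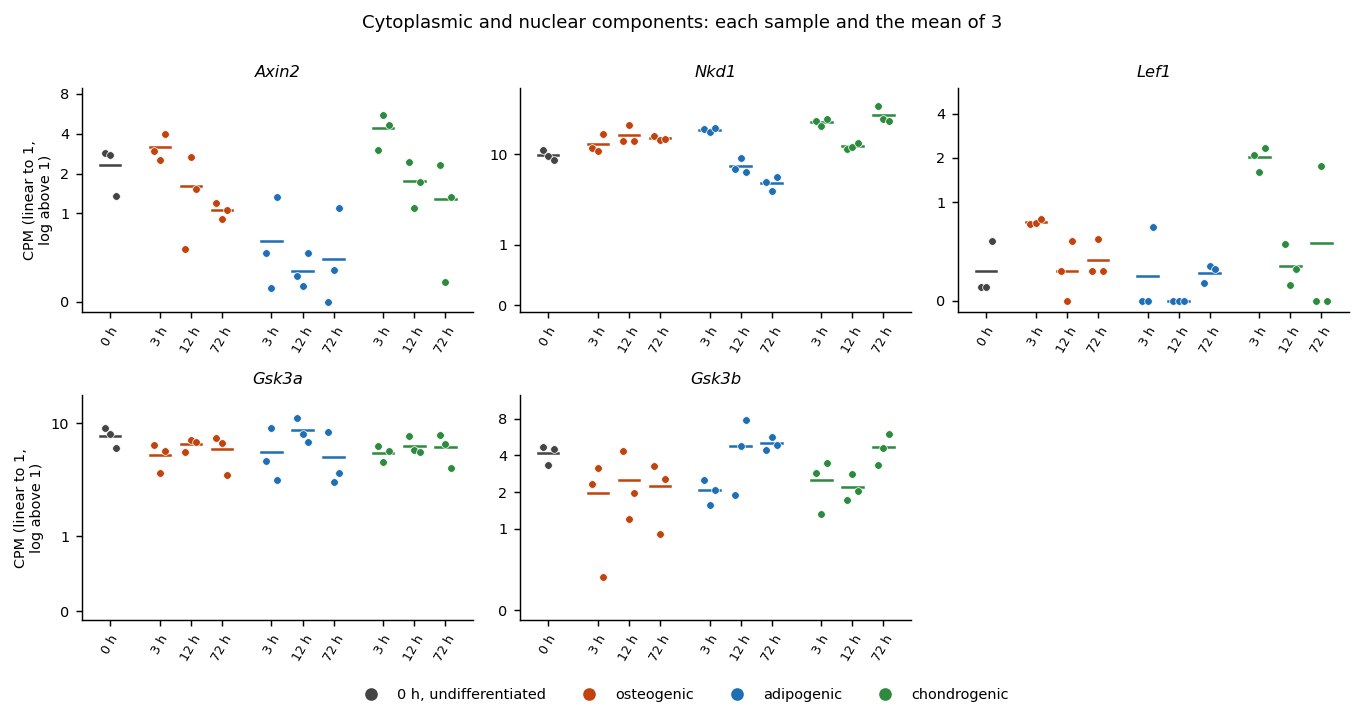
CPM of the tested cytoplasmic and nuclear Wnt pathway genes in each of the 30 samples (points) with the mean of 3 samples (bars); the vertical axis is linear up to 1 CPM and logarithmic above. Axin2 is below its 0 h samples in all adipogenic samples, Nkd1 ends at 3 separate levels at 72 h, and Lef1 peaks in the chondrogenic samples at 3 h.

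Wisp2, a secreted matricellular protein named for its induction by Wnt1, was at 0.573, 0.836 and 0.607 CPM at 0 h. Wisp2 in osteogenic medium was at 0.157, 0 and 0.692 CPM at 3 h, then 0, 0 and 0 at 12 h, with 6.27, 3.28 and 6.48 at 72 h. Wisp2 in adipogenic medium was at 0, 0 and 0 CPM at 3 h, then 0.292, 0.184 and 0 at 12 h, with 1.96, 5.32 and 1.43 at 72 h. Wisp2 in chondrogenic medium was at 1.35, 1.61 and 0.983 CPM at 3 h, then 3.18, 5.76 and 3.01 at 12 h, with 0, 0.663 and 1.11 at 72 h. The rise over 0 h was called at 72 h in osteogenic (log2 fold change 1.88 ± 0.30, adjusted p = 1.3e-05) and adipogenic cells (log2 fold change 1.10 ± 0.30, adjusted p = 0.00507) and at 12 h in chondrogenic cells (log2 fold change 1.54 ± 0.30, adjusted p = 0.000143), each without overlap. Wisp2 had 0 reads in osteogenic cells at 12 h and in adipogenic cells at 3 h, against 14 at 0 h, at least 4.47-fold and at least 4.97-fold lower with no overlap. Limma did not call these falls (log2 fold change -0.74 ± 0.30, adjusted p = 0.0489, and -0.74 ± 0.30 with 0.0503), while edgeR did (adjusted p = 0.00206 and 0.00217). At 3 h chondrogenic cells were called above adipogenic cells (adjusted p = 0.00401), with 28 against 0 reads or at least 9.55-fold higher. At 3 h Wisp2 was called lower in osteogenic than in chondrogenic cells only without osteogenic replicate 3 (-1.10, adjusted p = 0.0203). The adipogenic call at 72 h was lost without replicate 2 (0.68, adjusted p = 0.0759) and with a pseudocount of 0.1 (adjusted p = 0.0683). From 12 to 72 h Wisp2 rose in osteogenic cells, from 0 to 106 summed reads or at least 35.6-fold, and in adipogenic cells (log2 fold change 1.63 ± 0.30, adjusted p = 5.75e-05; 50 against 3 reads, 16.8 times (95% counting interval 5.42 to 84)), and it fell in chondrogenic cells (log2 fold change -1.67 ± 0.30, adjusted p = 5.6e-05). At 12 h chondrogenic cells were higher than adipogenic (log2 fold change 2.07 ± 0.30, adjusted p = 2.77e-06) and osteogenic cells, at least 26.3-fold. At 72 h they were lower than osteogenic (2.02 ± 0.30, osteogenic minus chondrogenic, adjusted p = 2.84e-06) and adipogenic cells (-1.23 ± 0.30, adjusted p = 0.0012; -0.93 without chondrogenic replicate 1 and -0.82 without adipogenic replicate 2). Osteogenic cells at 72 h were called above adipogenic cells only without osteogenic replicate 2 (adjusted p = 0.0135) or adipogenic replicate 2 (adjusted p = 0.0018). Wisp1 reached 5 reads in 1 sample and Wisp3 1 read.

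Calls between lineages are given as counts of the 20 tested Wnt genes beside the share of all tested genes. At 3 h, 3 of the 20 were called between osteogenic and adipogenic cells (7.66% of all tested genes), 3 between osteogenic and chondrogenic cells (7.31%) and 5 between chondrogenic and adipogenic cells (9.35%). At 12 h the same pairs gave 3 (13.2%), 4 (16.0%) and 5 (13.6%), and at 72 h 4 (13.7%), 8 (19.6%) and 10 (25.5%). With edgeR the 12 h counts were 7, 6 and 7 and the 72 h counts 6, 9 and 11. Over all tested genes edgeR called 290 higher and 485 lower, 381 and 525, and 378 and 379 at 12 h. At 72 h it called 311 and 389, 397 and 593, and 691 and 637 for the same pairs. For osteogenic and adipogenic cells the order of 12 and 72 h thus turned for the Wnt genes and for all tested genes alike. The 10 between chondrogenic and adipogenic cells at 72 h were Dkk3, Fzd9, Lgr6, Nkd1 and Rnf43, higher in chondrogenic cells, and Frzb, Fzd3, Fzd4, Wisp2 and Wnt4, lower in them. Between 12 and 72 h, 3 Wnt genes were called in osteogenic cells (23.2% of all tested genes), 4 in adipogenic cells (16.0%) and 5 in chondrogenic cells (13.2%). Frzb was called higher at 72 h than at 12 h in all 3.

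**Figure D5:**
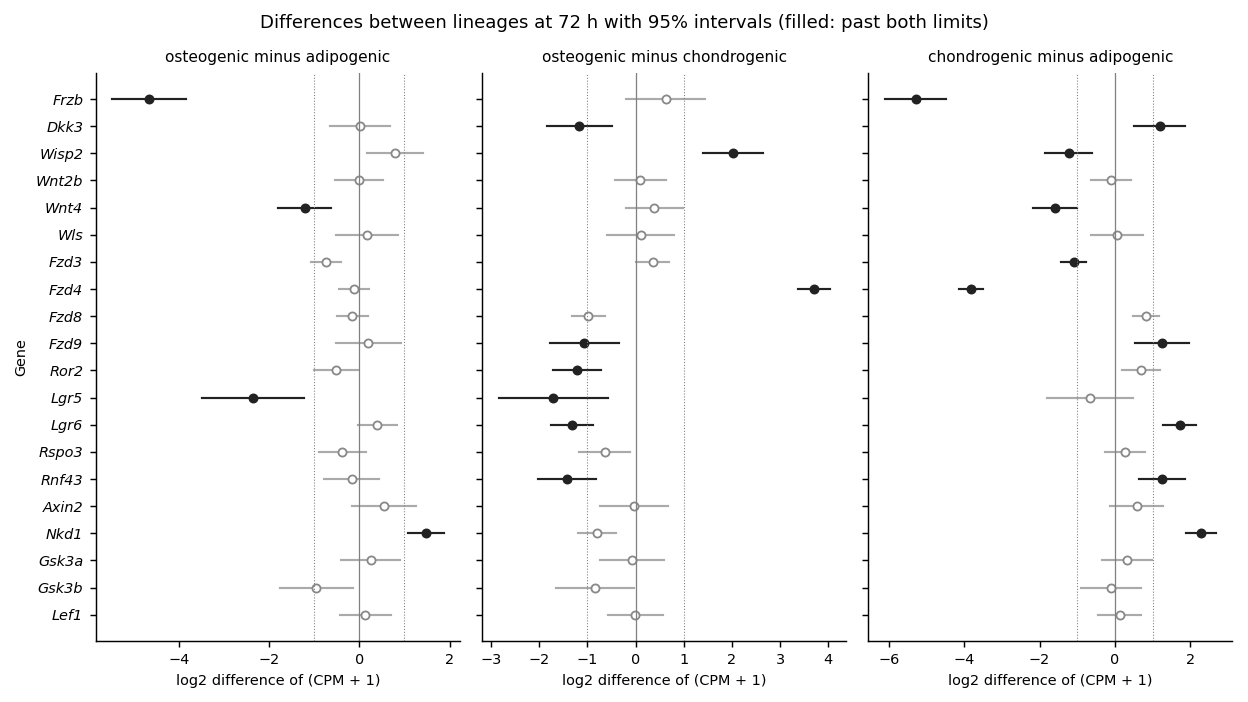
Log2 differences of CPM + 1 between lineages at 72 h (points, 3 samples a group) with 95% intervals (lines) for the 20 tested Wnt genes; filled points were called and dotted lines mark a log2 difference of 1. Frzb is highest in adipogenic cells, Fzd4 is lowest in chondrogenic cells and Nkd1 is lowest in adipogenic cells.

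Of 12 Wnt genes known from textbooks as feedback targets of the pathway, 8 were listed and 6 tested (Axin2, Lef1, Lgr5, Nkd1, Rnf43 and Wisp2). Against 0 h, 0 to 2 of the 6 were called higher and 1 or 2 lower in each of the 9 groups, beside 6.19 to 14.7% of all tested genes higher and 4.88 to 9.08% lower. Their median log2 fold change at 3, 12 and 72 h was -0.04, -0.57 and -0.27 in osteogenic, -0.33, -0.45 and -0.96 in adipogenic, and 0.58, -0.10 and -0.32 in chondrogenic cells, beside medians of -0.05 to 0.21 over all tested genes. Of 17 listed targets outside the Wnt genes, 12 were tested, and 1 to 4 of the 12 were called higher and 2 to 5 lower against 0 h in each group, beside the same 6.19 to 14.7% and 4.88 to 9.08% of all tested genes. Tnfrsf11b, which encodes the decoy receptor osteoprotegerin, was called lower in 8 of the 9 groups (-1.10 to -3.75), all but adipogenic cells at 3 h. Birc5 was called higher at 3 h in all 3 lineages (2.51 to 2.86). It was also higher at 12 h in osteogenic (3.48) and adipogenic cells (2.64) and at 72 h in chondrogenic cells (1.65). At 72 h it was lower in osteogenic (-2.83) and adipogenic cells (-3.43). Ccnd2 was called higher at 72 h in osteogenic (3.78), adipogenic (1.45) and chondrogenic cells (4.29). Efnb1 was called only higher (1.34 to 2.07), and Gja1 (-1.29 to -2.58) and Id2 (-1.03 to -3.30) only lower, each in most groups. Sox9, a cartilage factor with many other inputs, was called higher in chondrogenic cells at all times (3.62 to 4.72) and in osteogenic cells at 3 h (1.05), and lower in osteogenic cells at 12 h (-1.37) and in adipogenic cells at all times (-1.45 to -2.90).

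Of 72 further pathway components, 33 were listed and 22 tested. Against 0 h, 0 to 2 of the 22 were called higher and 0 to 2 lower in each of the 9 groups, beside the same shares of all tested genes. Dact3, which binds Dvl, was called lower in osteogenic cells at 3 h (-1.40) and 12 h (-1.09) and in adipogenic cells at 3 h (-1.11). Apcdd1, a membrane inhibitor of Wnt signalling, had 0 reads at 0 h. At 72 h it had 257 summed reads in adipogenic and 50 in osteogenic cells, at least 101-fold and at least 17.5-fold higher. Between lineages at 72 h, 4 of the 22 were called between osteogenic and adipogenic cells (13.7% of all tested genes), 7 between osteogenic and chondrogenic cells (19.6%) and 5 between chondrogenic and adipogenic cells (25.5%).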

How the data were processed

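RNA from 30 samples of rat BMSCs was sequenced, and per the labels the reads were processed with Trimmomatic, HISAT2 and StringTie. Versions, the genome build and the strand setting of the counting were not given in the sources used here. The labels and the study's methods name different library kits (ribosomal RNA depletion and mRNA selection). The authors deposited 1 table per sample with 10803 rows, whose value column is named FPKM but holds CPM: 100% of the values were whole reads of the sample's total within 0.01 reads. Rows of the same name were summed (729 names, none of them a Wnt gene), leaving 9999 names.

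The 4363 genes that reached 1 CPM in 3 or more samples were fitted on log2(CPM + 1) with limma 3.58.1 in R 4.3.3, with 10 groups in 1 model and trended variance, and p-values were adjusted by the Benjamini-Hochberg method over these genes in each comparison. The fit was tested on simulated data. Ratios on summed reads have exact 95% intervals for counting error. Groups at 0 were set to 3 reads over the group, and the reads of the other group were taken as exact. Spread between replicates, which was wider than counting error (lowest chi-square per degree of freedom 2.42), enters neither. Alternatives were a pseudocount of 0.1, no filter, median-ratio scaling, the quasi-likelihood test of edgeR 4.0.16 applied to those reads, the replicate number as a block, and leaving out each sample of the groups compared. Samples of the other groups, which share the estimate of the spread, were not left out. Same-numbered samples did not deviate together.

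The Wnt genes, the other lists and the tests were chosen with earlier results of these data known. Each Wnt gene called against 0 h was named. Values of all samples were given for those called in at least 5 of the 9 comparisons, for the 3 largest changes without overlap in each comparison, and for a few more genes chosen after their values were seen. At most 3 called genes were named per further list and comparison. The results of 1 called gene of these lists are not reported here. Promoter sequences are from RefSeq (GRCr8) and were searched on both strands.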

Additional observations from a re-analysis of the deposited data

Results flagged for a closer look

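In 2 Wnt genes, changes from 0 h differed between groups by a direct test and went in opposite directions. Frzb was called lower at 12 h and higher at 72 h in adipogenic cells (log2 fold changes of -1.65 and 4.66 against 0 h), and the difference between the times was 6.31 (limma, adjusted p = 7.45e-14; 7.13 without adipogenic replicate 3 at 72 h). Fzd4 was called lower in chondrogenic and higher in adipogenic cells at 72 h (-2.77 and 1.05 against 0 h), and the difference between the lineages was -3.82 (limma, adjusted p = 2.05e-18), while the adipogenic rise alone was 0.97 without adipogenic replicate 3. The causes were not tested.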

How the results depend on the processing

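Of the 98 calls of Wnt genes over 21 comparisons, 95 were kept with a pseudocount of 0.1, 97 without the filter, 94 under median-ratio scaling and 94 with edgeR, and none changed direction in any alternative. With the replicate block 98 of 98 were kept; the replicate numbers are not known to pair samples, since of 135 same-numbered pairs 3 had a correlation of deviations over 0.1. Leaving out 1 sample of the compared groups at a time kept 532 of 572 calls. These 572 leave out 16 fits in which the gene fell under the filter: the 4 calls of Lgr6 could not be tested without any 1 of the chondrogenic replicates at 72 h, nor the 2 calls of Ror2 without replicate 1 or 2. The number of Wnt genes called between adipogenic cells at 12 h and 0 h went from 3 to 6 with a pseudocount of 0.1 and to 5 with edgeR, that between osteogenic and chondrogenic cells at 3 h from 3 to 6 with that pseudocount, and that between osteogenic and adipogenic cells at 12 h from 3 to 6 and, with edgeR, to 7. With 1 sample left out, 3 to 5 were called between chondrogenic and adipogenic cells at 12 h, 5 to 9 between osteogenic and chondrogenic cells at 72 h, and 2 to 6 between chondrogenic cells at 72 and 12 h. The cause was not tested. Median-ratio scaling moved the median log2 fold change of all genes by -0.271 to 0.342. Most ligands had too few reads for a test at this depth.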
